A study of Mus musculus with 6 samples.

Results

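The deposited count table of 6 RNA-seq libraries of C2C12 cells holds 54733 rows, of which 54532 carry a gene name and 201 are transcribed loci with a dash in place of a name. The identifiers of these 201 consist of a common prefix and a serial number, and each locus is called here by that number, so that locus 197 is the row numbered 197. They were chosen by the prefix alone and not by any measured value. C2C12 is a mouse myoblast line whose cells can fuse into myotubes. The Gmppb-KO group comprised 3 libraries of cells edited by CRISPR/Cas9, with guide RNAs against exon 1 and exon 5 of Gmppb, selected in puromycin at 4 µg per ml and grown out as monoclonal cells. The wild-type group comprised 3 libraries of untreated C2C12 cells, and both groups were cultured for 2 days. Gmppb encodes the beta subunit of GDP-mannose pyrophosphorylase, which makes the mannose donor used for glycosylation of proteins that include alpha-dystroglycan. The labels do not say whether the 3 Gmppb-KO libraries came from 1 clone or several, so genotype and clone cannot be told apart, and nothing says that replicates were separate cultures, so that p-values measure the spread between these libraries, which may be technical.

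Loci of this kind arise when reads are assembled into transcripts and some of the assembled models match no gene of the annotation. Mammalian genomes yield many of them: long noncoding RNAs, transcripts started in the long terminal repeats of endogenous retroviruses, copies of LINE-1 elements, processed pseudogenes copied from abundant mRNAs, and stretches that continue a known gene beyond its annotated end. Endogenous retroviruses are remnants of past germline infections and may keep parts of the genes for envelope, reverse transcriptase and integrase. Myoblasts also use long noncoding RNAs in differentiation, but none of the 201 loci has a name that would tie it to a known one.

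Libraries held between 17650656 and 18588112 counts in the Gmppb-KO group and between 16024389 and 17976912 in the wild-type group. Gmppb itself had 379, 286 and 276 counts in Gmppb-KO libraries, against 304, 310 and 409 in wild-type libraries (log2 fold change -0.34, SE 0.26, adjusted p = 0.458, edgeR), and its transcript level need not report edits inside its exons. Of the 6 myoblast markers, Myod1, Pax7 and Myog were lower in Gmppb-KO. The summed level of the list was 2250 to 4180 CPM (counts per 1000000 scaled counts) in Gmppb-KO libraries and 3900 to 5700 CPM in wild-type libraries. Most of that sum was Des, at 1930 to 3820 CPM in Gmppb-KO libraries and 3260 to 5120 CPM in wild-type libraries. Myod1, the transcription factor that commits cells to the muscle lineage, averaged 0.452 ± 0.118 CPM in Gmppb-KO and 158 ± 5.64 CPM in wild-type (SD, n = 3 each), while Myf5, Des and Cdh15 did not pass the threshold. Of 5 fibroblast markers, Dcn, Postn and Mfap5 were higher and Pdgfrb lower, with a summed level of 170 to 338 CPM in Gmppb-KO and 99.4 to 122 CPM in wild-type. Of the other lists, the adipocyte genes Fabp4 and Lpl and the epithelial gene Krt14 were higher and the neural gene Ngfr was lower. Cdh1, also on the epithelial list, went the other way from Krt14 but was too scarce to be tested. It had 0, 0 and 0 counts in Gmppb-KO libraries, against 13, 6 and 10 in wild-type libraries. Adipoq, Plin1, Pecam1, Cdh5, Itgam, Epcam and Sox10, which mark fat, endothelial, myeloid, epithelial and Schwann cells, were at 0 counts in all 6 libraries. The part of these differences in the results on the unnamed loci was not tested, and in bulk RNA fewer cells of a kind and less RNA per cell cannot be told apart.

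The loci lay on 20 chromosomes and 1 unplaced scaffold of mm10. They had a median transcribed length of 590 bases (214 to 5298) within a median span of 2972 bases (221 to 118877). As many as 146 were built of blocks separated by gaps, as spliced transcripts are, and 55 were 1 unbroken block. None overlapped a named row on either strand, and the median distance to the nearest named row was 7.68 kb. Strands of loci are printed as the authors deposited them, but the library kit named in the labels does not mark strand. The RefSeq annotation of the same build has a gene span that overlaps 83 of the 201 loci, by any shared base and on either strand. A long noncoding RNA overlaps 49, a protein-coding gene 23 and a pseudogene 12, with some loci under more than 1 of these. The authors' description column lists protein domains for 18 loci. In 11 of these the domains come from retroelements, and in 7 from other proteins, such as ribosomal proteins and KRAB zinc-finger proteins.

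Sequence was at hand in or near 5 of the loci described below, given in the order of their counts, with coordinates in mm10 (GRCm38). For locus 88 these are the first 300 bases of the GENCODE M21 processed pseudogene that it covers (chr17:82410520-82410819, minus strand), shown because they are almost those of the mRNA of Rpsa, a protein of the small ribosomal subunit. Capitals mark the 3 bases that differ from the Rpsa mRNA, and over the whole 885 bases of the pseudogene the identity was 98.9%.
locus 88: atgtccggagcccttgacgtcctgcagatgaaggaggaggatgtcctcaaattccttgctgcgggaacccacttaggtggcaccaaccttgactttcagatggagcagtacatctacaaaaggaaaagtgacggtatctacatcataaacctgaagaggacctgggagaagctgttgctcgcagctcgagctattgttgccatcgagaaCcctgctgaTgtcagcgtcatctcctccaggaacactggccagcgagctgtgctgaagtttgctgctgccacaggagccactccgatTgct
For the other 4 these are RefSeq windows (GRCm38.p6) from 250 bases before to 50 bases after the start of the RefSeq gene at the locus, shown because 2 of these loci changed and the other 2 were among the most counted. They are D17H6S56E-5 for locus 82 (chr17:35000697-35000996, minus strand), Gm52290 for locus 72 (chr17:21473564-21473863, plus strand), Gm46220 for locus 10 (chr10:38059091-38059390, plus strand) and Gm2560 for locus 144 (chr4:14291260-14291559, minus strand). The windows of locus 82, locus 72 and locus 10 lie beside the locus and hold none of its bases, and that of locus 144 holds 40 of them.
locus 82: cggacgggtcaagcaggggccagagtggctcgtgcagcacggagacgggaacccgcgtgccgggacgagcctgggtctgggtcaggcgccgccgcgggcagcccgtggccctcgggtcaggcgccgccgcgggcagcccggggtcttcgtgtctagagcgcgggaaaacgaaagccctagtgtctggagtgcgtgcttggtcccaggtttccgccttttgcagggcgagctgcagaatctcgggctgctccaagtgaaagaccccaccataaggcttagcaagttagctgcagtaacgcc
locus 72: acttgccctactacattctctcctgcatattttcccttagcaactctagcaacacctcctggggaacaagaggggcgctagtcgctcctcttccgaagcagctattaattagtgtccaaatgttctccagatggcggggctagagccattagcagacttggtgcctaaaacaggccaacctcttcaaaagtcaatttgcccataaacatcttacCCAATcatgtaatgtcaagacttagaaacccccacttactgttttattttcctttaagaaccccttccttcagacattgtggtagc
locus 10: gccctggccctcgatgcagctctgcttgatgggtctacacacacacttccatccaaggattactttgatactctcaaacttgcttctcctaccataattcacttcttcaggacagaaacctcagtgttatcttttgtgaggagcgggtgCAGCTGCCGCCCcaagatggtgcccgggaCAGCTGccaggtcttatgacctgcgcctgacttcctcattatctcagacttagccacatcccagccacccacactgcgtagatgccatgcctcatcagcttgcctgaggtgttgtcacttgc
locus 144: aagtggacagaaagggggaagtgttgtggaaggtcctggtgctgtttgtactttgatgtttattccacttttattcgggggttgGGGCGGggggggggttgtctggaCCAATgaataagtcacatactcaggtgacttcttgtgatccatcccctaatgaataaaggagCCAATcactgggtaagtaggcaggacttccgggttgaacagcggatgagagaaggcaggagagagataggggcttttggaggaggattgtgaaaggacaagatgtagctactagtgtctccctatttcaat
Capitals mark matches to 4 motifs that were searched on both strands: CAGCTG (an E-box of the kind myogenic factors bind), GGGCGG (the GC box), CCAAT and TATAAA. The window of locus 10 held 2 matches to CAGCTG, which occurs in 16.3% of all 32851 RefSeq windows of this length. Directly beside the first of them it held 1 match to GGGCGG on the other strand, and the window of locus 144 held 1 on the printed strand, a motif found in 35.7% of windows. Those of locus 144 and locus 72 held 2 and 1 matches to CCAAT, found in 37.4% of windows. TATAAA, found in 13.6% of windows, was in none of the 4, and that of locus 82, with 67.0% G and C the richest of them, held none of the motifs. These are matches of letters and say nothing of binding.

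Gmppb-KO cells had transcripts of several loci that were at or near 0 counts in wild-type cells. In the 3 Gmppb-KO libraries locus 47 had 133 to 218 counts and locus 91 had 18 to 25, against 0 in all 3 wild-type libraries, and locus 197 had 250 to 394, against 0 to 1. A smaller number of scarce loci, led by locus 133, had the reverse pattern. The most transcribed of the changed loci, locus 22, was 2.58-fold higher in Gmppb-KO, at 200 CPM against 77.7 CPM in wild-type.

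Counts over all rows were tested with edgeR's quasi-likelihood test, and a row is said to be called, higher or lower, where its Benjamini-Hochberg adjusted p over all 12883 rows tested was under 0.05. Of the 201 loci, 5 had no count in any library, 97 passed the filter on low counts and 104, including those 5, did not. Of the 97 tested loci 16 were called (16.5%), against 5.74% of all rows tested. Higher calls numbered 11 in the loci, against a background of 2.43% of all rows, and lower calls 5, against 3.31%. The 3 Gmppb-KO values lay wholly above or below the 3 wild-type values in 41 tested loci (42.3%), against 26.2% of all rows. The median log2 fold change was 0.15 over the tested loci and 0.11 over all rows.

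These shares depend on how a row passed the filter. Of the 97 loci, 7 passed only through Gmppb-KO libraries and 7 only through wild-type libraries, and such loci had to differ to be tested: 5 and 4 of them were called. The 5 are locus 19, locus 47, locus 91, locus 197 and locus 200, and the 4 are locus 4, locus 11, locus 68 and locus 133, and their adjusted p is printed as a description. With only a count sum above 1 as the filter these 9 and the other called loci were called as well. Among the 83 loci that passed through libraries of both groups 7 were called (8.43%), against 4.01% of all such rows. The counts of calls are therefore descriptions of the list and no test of it. In a fit without wild-type replicate 1, 8 of 105 tested loci were called (7.62%), all of them higher and all among the 16. Of all rows tested in that fit, 2.58% were called.

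**Figure D1:**
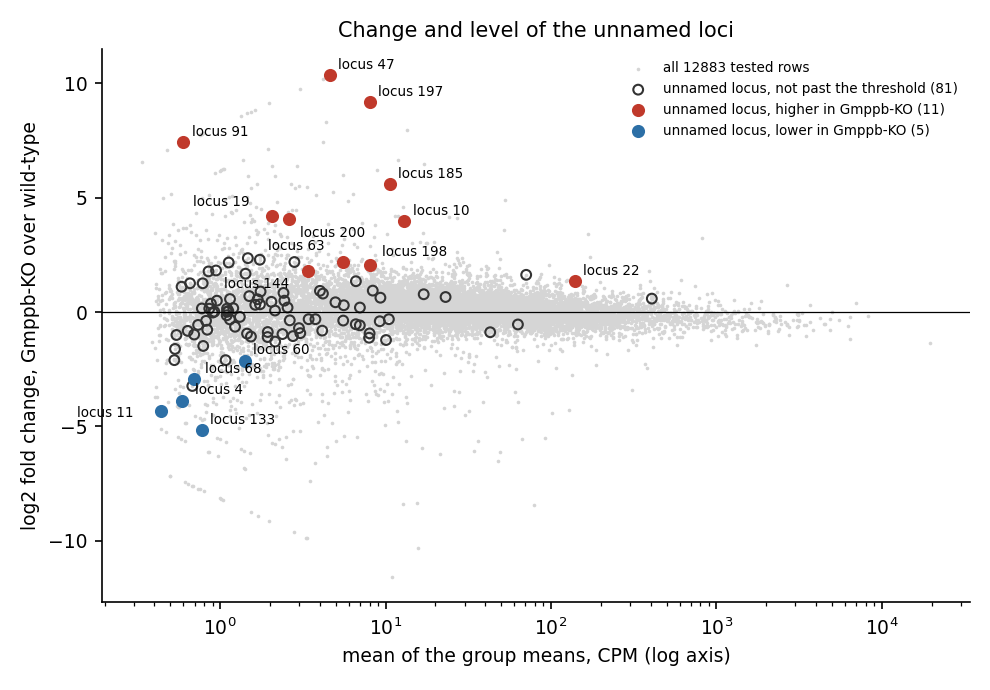
Log2 fold change of Gmppb-KO over wild-type (y axis) against the mean of the group means in CPM (x axis, log scale) for all 12883 tested rows (grey) and the 97 tested unnamed loci (circles). The 11 loci called higher and the 5 called lower are filled and named. All 5 lower loci lie at the low end of the levels, while the higher ones run up to locus 22, with 200 CPM in Gmppb-KO and 77.7 CPM in wild-type.

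Of the 11 loci with a retroelement domain 8 were tested and 2 were called, both higher in Gmppb-KO, beside 2.43% of all rows called higher. Among the 7 that passed the filter through libraries of both groups 1 was called, locus 10. The other called one, locus 197 (chrX:9672743-9681428, minus strand, 3160 transcribed bases), lists the domains of a retroviral envelope polyprotein and of the end of a murine leukaemia virus integrase, the enzyme that inserts viral DNA. This locus had 250, 284 and 394 counts in Gmppb-KO libraries, against 0, 0 and 1 in wild-type libraries. The groups were far apart: the ratio of pooled counts, 928 in Gmppb-KO against 1 in wild-type, was 787 after scaling by effective library size, with an exact 95% binomial interval of 141 to 31100 that covers counting error only (adjusted p = 0.000279, edgeR).

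Locus 10 (chr10:38059502-38076359, plus strand, 4199 bases), which overlaps the span of the RefSeq long noncoding RNA Gm46220, lists a reverse transcriptase thumb, an integrase core and an integrase zinc-binding domain. It had 430, 437 and 537 counts in Gmppb-KO libraries, against 10, 37 and 27 in wild-type libraries. In CPM it was at 23.4, 24.4 and 25.3 in Gmppb-KO libraries, against 0.593, 2.49 and 1.58 in wild-type libraries. The groups were far apart, and the log2 fold change was 3.97 (SE 0.48, adjusted p = 0.00261, edgeR).

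Of the 8 tested retroelement loci 7 had a positive log2 fold change, with a median of 1.52, and of the 7 that passed through both groups 6 had one, values given without a test of the group. The most counted, locus 82 (chr17:34996726-35000329, minus strand), carries an envelope domain, overlaps the RefSeq gene D17H6S56E-5 and is 658 bases from Vars, the gene of valyl-tRNA synthetase. It had 574, 370 and 823 counts in Gmppb-KO libraries, against 739, 394 and 1646 in wild-type libraries, groups that overlap (log2 fold change -0.88, SE 0.46, adjusted p = 0.313, edgeR). On chromosome 4, locus 145, with the same pair of listed domains as locus 197, had 57, 47 and 61 counts in Gmppb-KO libraries, against 22, 9 and 71 in wild-type libraries. Its groups overlap, unlike those of locus 197.

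A LINE-1 type domain is listed for locus 189 (chr9:48578597-48591626, minus strand), which overlaps the RefSeq span of Nnmt and lies 251 bases from the named row of that gene, nicotinamide N-methyltransferase. It had 49, 40 and 80 counts in Gmppb-KO libraries, against 4, 5 and 20 in wild-type libraries, and missed the threshold (log2 fold change 2.29, SE 0.62, adjusted p = 0.0782, edgeR). Nnmt itself had 964, 1002 and 598 counts in Gmppb-KO libraries, against 175, 191 and 156 in wild-type libraries, and was called higher (log2 fold change 2.08, SE 0.31, adjusted p = 0.00659, edgeR). Locus and gene lie on the same strand, and the Gmppb-KO values of both were above all wild-type values.

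The envelope loci numbered 97 and 89 overlap each other on opposite strands of chromosome 18 and were below the filter. In Gmppb-KO libraries locus 97 had 8, 12 and 7 counts and locus 89 had 2, 5 and 10, against 0 in every wild-type library for both. The library kit named in the labels does not mark strand, so reads of the overlap cannot be assigned to 1 strand. Reads of near-identical retroelement copies can likewise be shared among them, and how such reads were counted is not given in the sources used here.

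Of the called loci without a listed domain, locus 22 had the highest level (chr11:31545805-31549654, plus strand, 1851 bases). It had 3631, 3803 and 4046 counts in Gmppb-KO libraries, against 1286, 1340 and 1136 in wild-type libraries. Both groups were tight and well apart, at 200 ± 11.3 CPM in Gmppb-KO and 77.7 ± 12 CPM in wild-type (SD, n = 3 each; log2 fold change 1.37, SE 0.19, adjusted p = 0.00485, edgeR). The call was lost without wild-type replicate 1 (adjusted p = 0.0508, edgeR). Per kilobase this was 108 CPM in Gmppb-KO, a level above the upper quartile of 16.7 CPM per kilobase over tested protein-coding rows, averaged over all libraries. The nearest named row, Bod1, which acts in chromosome alignment at mitosis, is 115527 bases away.

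No wild-type library had a count at locus 47 (chr14:19225970-19229396, minus strand, 1469 bases), with 133, 183 and 218 counts in Gmppb-KO libraries, against 0, 0 and 0 in wild-type libraries. It was at least 151-fold higher in Gmppb-KO, against a floor of 3 counts over the wild-type group (adjusted p = 0.000868, edgeR). Likewise locus 91 (chr18:14113562-14134624, plus strand, 653 bases) had 25, 25 and 18 counts in Gmppb-KO libraries, against 0, 0 and 0 in wild-type libraries, at least 19.2-fold higher on the same floor (adjusted p = 0.00967, edgeR).

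Locus 185 (chr9:12097753-12104383, plus strand, 1587 bases) had 379, 341 and 481 counts in Gmppb-KO libraries, against 1, 17 and 2 in wild-type libraries. Wild-type replicate 2 stood above the other 2 wild-type libraries and still far below Gmppb-KO (log2 fold change 5.59, SE 0.81, adjusted p = 0.0055, edgeR). Counts at locus 19 (chr10:113498813-113503083, minus strand, 1190 bases) were 57, 83 and 84 in Gmppb-KO libraries, against 2, 6 and 2 in wild-type libraries (log2 fold change 4.18, SE 0.57, adjusted p = 0.00419, edgeR). On the X chromosome, locus 200 (chrX:86532998-86536342, minus strand, 1101 bases) had 106, 119 and 51 counts in Gmppb-KO libraries, against 4, 2 and 8 in wild-type libraries (log2 fold change 4.09, SE 0.62, adjusted p = 0.00662, edgeR). In all 3 of these loci the groups did not overlap, and the lowest Gmppb-KO library was above the highest wild-type library by several fold. Locus 19 and locus 200 passed the filter only through Gmppb-KO libraries and so had to differ.

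More moderate changes were seen at the other 3 higher loci, which wild-type cells also transcribed. Counts at locus 198 (chrX:53910405-53914332, minus strand) were 217, 297 and 227 in Gmppb-KO libraries, against 67, 47 and 36 in wild-type libraries (log2 fold change 2.08, SE 0.36, adjusted p = 0.0116, edgeR). Those at locus 63 (chr16:7931125-7950559, minus strand) were 128, 161 and 238 in Gmppb-KO libraries, against 40, 34 and 22 in wild-type libraries (log2 fold change 2.19, SE 0.38, adjusted p = 0.0121, edgeR). Locus 144 (chr4:14281243-14291299, minus strand), which begins 10 bases from the start of the RefSeq long noncoding RNA Gm2560, had 98, 98 and 105 counts in Gmppb-KO libraries, against 19, 29 and 25 in wild-type libraries (log2 fold change 1.79, SE 0.36, adjusted p = 0.0238, edgeR). The call of locus 198 was lost without Gmppb-KO replicate 2 and that of locus 63 without wild-type replicate 1. The call of locus 144 was lost in the fits that left out Gmppb-KO replicate 1, Gmppb-KO replicate 2, wild-type replicate 1 or wild-type replicate 3, with adjusted p up to 0.147 (edgeR).

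**Figure D2:**
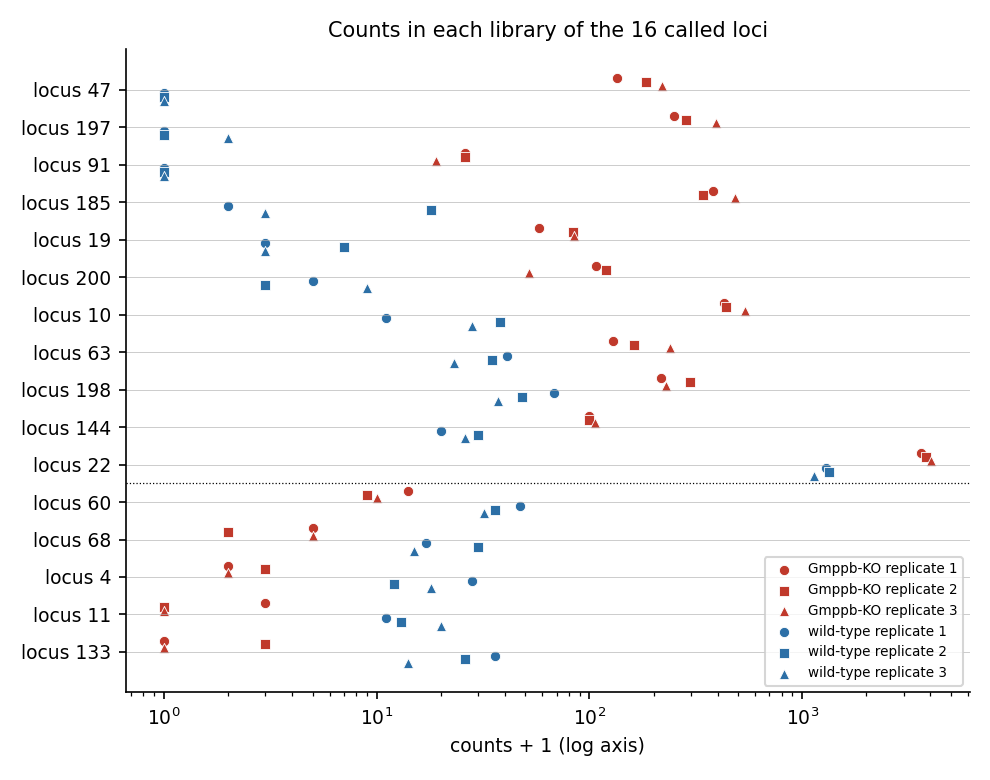
Counts plus 1 (x axis, log scale) in each library for the 16 called loci (y axis, ordered by log2 fold change), with Gmppb-KO in red, wild-type in blue and a marker shape per replicate. The dotted line parts the 11 higher loci from the 5 lower ones, and in each locus the 2 groups are apart: locus 197 has 250 to 394 counts in Gmppb-KO and 0 to 1 in wild-type.

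The 5 lower loci were all scarce, with at most 46 counts in any library. At locus 133 (chr2:180426753-180443805, minus strand, 912 bases) Gmppb-KO libraries had 0, 2 and 0 counts, against 35, 25 and 13 in wild-type libraries. Pooled over libraries and scaled by effective library size, wild-type was 43.0 times Gmppb-KO (exact 95% binomial interval 11.5 to 362; adjusted p = 0.0163, edgeR). At locus 11 (chr10:77230206-77243325, plus strand, overlapping RefSeq Gm35837) Gmppb-KO libraries had 2, 0 and 0 counts, against 10, 12 and 19 in wild-type libraries, with wild-type 24.2 times Gmppb-KO on the same scaling (6.28 to 206; adjusted p = 0.0305, edgeR). In both loci the Gmppb-KO libraries had at most 2 counts. Both passed the filter only through wild-type libraries, so wild-type counts near 10 or above were a condition of being tested.

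The groups were also apart at locus 4 (chr1:144836855-144863597, minus strand), with 1, 2 and 1 counts in Gmppb-KO libraries, against 27, 11 and 17 in wild-type libraries (log2 fold change -3.87, SE 0.65, adjusted p = 0.0109, edgeR). Gmppb-KO libraries had 4, 1 and 4 counts at locus 68 (chr16:91963684-91964652, minus strand), against 16, 29 and 14 in wild-type libraries (log2 fold change -2.93, SE 0.65, adjusted p = 0.0367, edgeR). At locus 60 (chr15:103169160-103170434, minus strand) they had 13, 8 and 9 counts, against 46, 35 and 31 in wild-type libraries (log2 fold change -2.12, SE 0.44, adjusted p = 0.0273, edgeR). All 5 lower calls were lost without wild-type replicate 1. Those of locus 11, locus 60 and locus 68 were also lost without Gmppb-KO replicate 2, without Gmppb-KO replicate 3 and without other single libraries, and that of locus 68 also with library totals as the only scaling.

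Calls were also counted by the build and place of a locus. All 16 called loci had gaps between blocks, which is 21.6% of the 74 tested loci with gaps, while 0 of the 23 tested unbroken loci were called by edgeR or limma voom and 2 by DESeq2, with an unadjusted p under 0.05 in 8 of the 23 (edgeR). In other edgeR fits 1 unbroken locus was called: locus 103 with the weaker filter, with a replicate block and without Gmppb-KO replicate 1, locus 77 without Gmppb-KO replicate 3, and locus 108 without wild-type replicate 3. Loci that passed the filter through 1 group only had to differ, so each share is followed by that over loci that passed through both groups, to be read beside 4.01% of all such rows. With gaps, 7 of 61 such loci were called (11.5%), and 0 of 22 unbroken ones. Over 50 kb from any named row, 6 of 14 tested loci were called (42.9%), and 3 of the 10 that passed through both groups (30%, locus 185 among them). Between 5 and 50 kb it was 8 of 46 (17.4%), and 3 of 38 through both groups (7.89%), and within 5 kb it was 2 of 36 (5.56%), and 1 of 34 through both groups (2.94%). Among loci that overlap no RefSeq gene span 12 of 45 tested ones were called (26.7%), and 5 of 36 through both groups (13.9%). Among those that do overlap such a span 4 of 52 were called (7.69%), and 2 of 47 through both groups (4.26%). Of the 11 loci that share exon bases with a GENCODE M21 gene absent from the table, 8 were tested and edgeR, limma voom and DESeq2 each called 0, with an unadjusted p under 0.05 in 0 (edgeR). By chromosome, 17 held 20 of the loci, 9.95% of them against 3.88% of the named rows, and 18 and 19 held 14 each, 6.97% against 1.66% and 2.02%. These classes overlap, hold few loci and were not tested against each other.

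**Figure D3:**
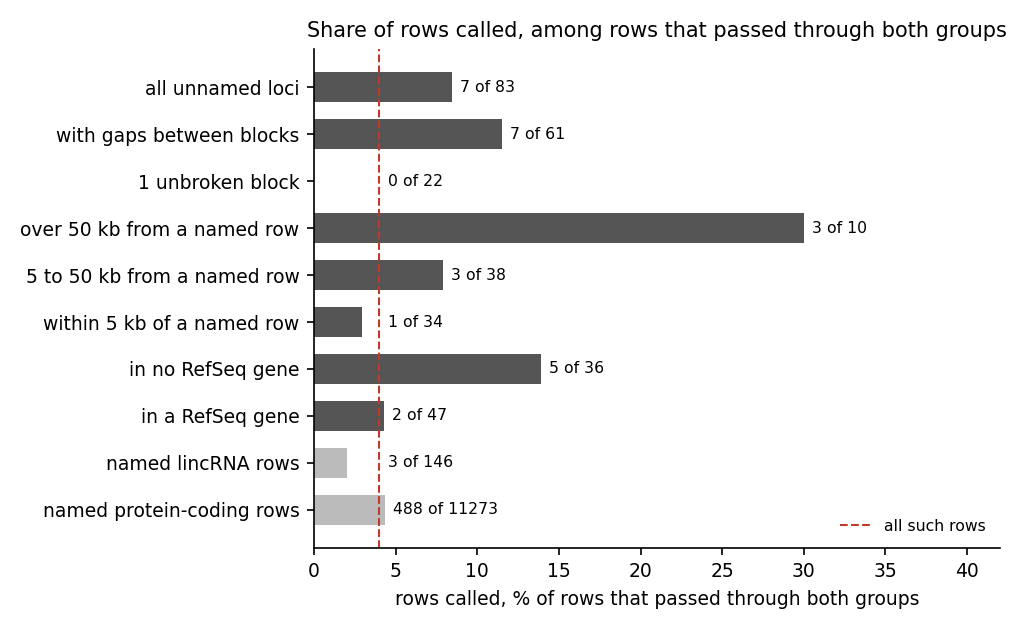
Share of rows that were called between Gmppb-KO and wild-type (x axis, percent), among rows that passed the filter through libraries of both groups, for classes of the unnamed loci (dark bars) and for 2 classes of named rows (light bars), with the numbers called and tested. The dashed line is the 4.01% of all such rows. The bar for loci over 50 kb from a named row reaches 30%, which is 3 of 10 loci, locus 185 among them. The bar for unbroken loci is at 0.

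Among named noncoding rows, the same test called 10 of 155 long intergenic noncoding RNAs (6.45%), 2 of 106 antisense RNAs (1.89%) and 3 of 670 processed pseudogenes (0.448%). Through libraries of both groups these were 3 of 146 (2.05%), 1 of 101 (0.99%) and 2 of 658 (0.304%), and the difference between these shares and that of the loci was not tested. The median level of the tested loci was 1.73 CPM per kilobase, against 1.12 for tested long intergenic noncoding RNAs and 4.66 for tested protein-coding rows. By this per-length level the loci that passed the filter sat between those 2 kinds of named row.

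The genes nearest to the called loci were mostly scarce or not called. For 11 of the 16 called loci the nearest named row was too scarce to be tested, with at most 25 counts in any library. Taking the nearest tested row at whatever distance, 1 of the 16 called loci had a called neighbour, and 3 of the 80 tested loci that were not called had one. Over 96 loci the log2 fold changes of locus and neighbour had Pearson's r = 0.36 and Spearman's rho = 0.24. For the 38 loci over 50 kb from that neighbour, which include 11 of the 16 called ones, they were 0.03 and 0.04. These are descriptions across loci whose values come from the same 6 libraries.

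The called neighbour was Slco4a1, a gene for an organic anion transporter, 12440 bases from locus 133 on the opposite strand. It had 23, 26 and 44 counts in Gmppb-KO libraries, against 421, 339 and 488 in wild-type libraries, lower like the locus (log2 fold change -3.99, SE 0.31, adjusted p = 0.00036, edgeR). The rows of the muscle microRNAs Mir133a-2 and Mir1a-1 lie 28271 and 37629 bases from locus 133 and had 0 counts in all 6 libraries.

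Beside locus 197, Dynlt3, a dynein light chain gene 9740 bases away on the same strand, had 265, 1554 and 3072 counts in Gmppb-KO libraries, against 275, 280 and 246 in wild-type libraries (adjusted p = 0.0974, edgeR). Gmppb-KO replicate 1 was within the wild-type range for Dynlt3, while for locus 197 it was at 250 counts, far above wild-type. Near locus 60, the DNA glycosylase gene Smug1, 2068 bases away, had 248, 201 and 288 counts in Gmppb-KO libraries, against 182, 193 and 326 in wild-type libraries, groups that overlap. Further from locus 11, at 47401 bases, Adarb1, which encodes an RNA-editing deaminase, was called lower, with 199, 174 and 279 counts in Gmppb-KO libraries, against 397, 355 and 566 in wild-type libraries (adjusted p = 0.0257, edgeR). Adarb1 was the only called row of the 3 within 50 kb of locus 11. The closer rows were not called: Gm10941 at 14451 bases (log2 fold change -1.95, adjusted p = 0.136, edgeR) and Pofut2 at 15893 bases (log2 fold change -0.13, adjusted p = 0.706, edgeR). A locus below the filter, locus 177, lies 232 bases from Pdlim3, a gene for a muscle Z-disc protein, and was picked out here after its values were seen. It had 0, 0 and 0 counts in Gmppb-KO libraries, against 9, 1 and 1 in wild-type libraries, while Pdlim3 had 50, 53 and 59 in Gmppb-KO libraries, against 2065, 1664 and 2723 in wild-type libraries, and was called lower.

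Most counts of the 201 loci came from a few that were not called. The largest was locus 136 (chr3:5860333-5860826, minus strand), an unbroken block of 494 bases with no listed domain, 20006 bases from the nearest named row. It had 9077, 3861 and 16059 counts in Gmppb-KO libraries, against 6894, 4368 and 4668 in wild-type libraries (log2 fold change 0.59, SE 0.42, adjusted p = 0.43, edgeR). The groups overlap, since Gmppb-KO replicate 2 had the fewest counts of all 6.

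The libraries ranked in locus 136 as they did in a named miRNA row, Gm23935, with 1210, 597 and 1660 CPM in Gmppb-KO libraries and 960, 762 and 665 CPM in wild-type libraries, beside 493, 216 and 756 CPM in Gmppb-KO and 409, 294 and 273 CPM in wild-type for locus 136. The ribosomal RNA row CT010467.1 had the same order within Gmppb-KO, at 4010, 1310 and 5860 CPM, but not within wild-type, at 1360, 1430 and 2160 CPM. Ribosomal RNA rows took 0.397%, 0.13% and 0.705% of counts in Gmppb-KO libraries, against 0.129%, 0.118% and 0.231% in wild-type libraries. The part of such RNA in the counts of locus 136 was not tested.

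**Figure D4:**
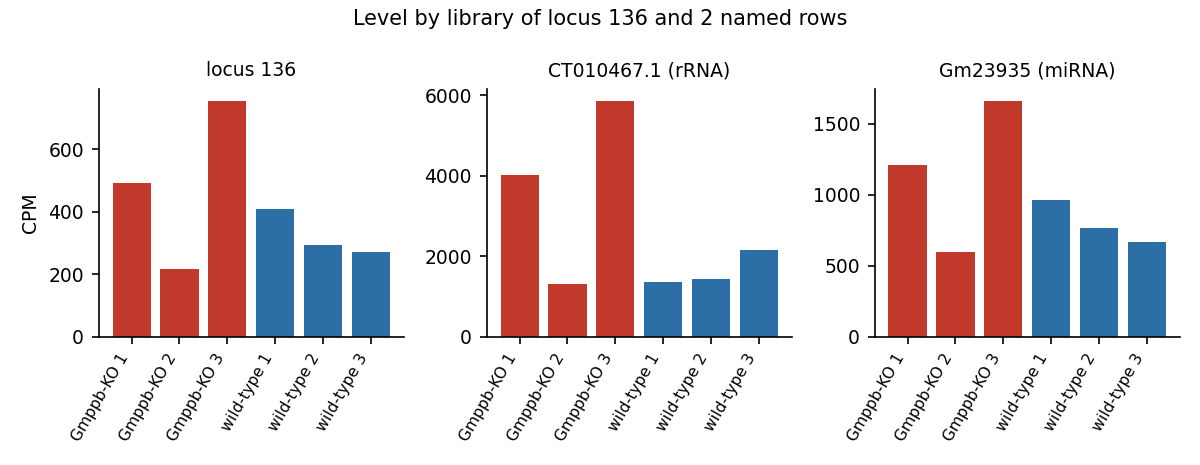
Level in CPM (y axis) of locus 136, the ribosomal RNA row CT010467.1 and the miRNA row Gm23935 in each library (x axis, Gmppb-KO in red, wild-type in blue). In all 3 panels Gmppb-KO replicate 3 is highest and Gmppb-KO replicate 2 is lowest, at 756 and 216 CPM for locus 136.

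All 201 loci together took 0.115%, 0.0984% and 0.195% of the counts of Gmppb-KO libraries, against 0.0877%, 0.0699% and 0.0834% of those of wild-type libraries. Every Gmppb-KO share was above every wild-type share, with means of 0.136 ± 0.0516% in Gmppb-KO and 0.0803 ± 0.00927% in wild-type (SD, n = 3 each; exact 2-sided permutation p = 0.1, the smallest that 3 against 3 can give). Without locus 136 the shares were 0.066%, 0.0768% and 0.104% in Gmppb-KO libraries, against 0.0488%, 0.0456% and 0.0543% in wild-type libraries, and the difference of the means fell to 0.0327 percentage points, against 0.0557 with it (exact permutation p = 0.1). Without Gmppb-KO replicate 3 the difference over all 201 loci was 0.0263 percentage points. The shares of named long intergenic noncoding RNAs were apart in the same direction (exact permutation p = 0.1). They were 0.222%, 0.244% and 0.275% in Gmppb-KO libraries, against 0.204%, 0.196% and 0.197% in wild-type libraries. Those of protein-coding rows and of named processed pseudogenes overlapped between the groups. The 16 called loci took 0.0294%, 0.0326% and 0.0363% of Gmppb-KO counts, against 0.00882%, 0.00903% and 0.00844% of wild-type counts, a description, since the calls used the same counts.

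**Figure D5:**
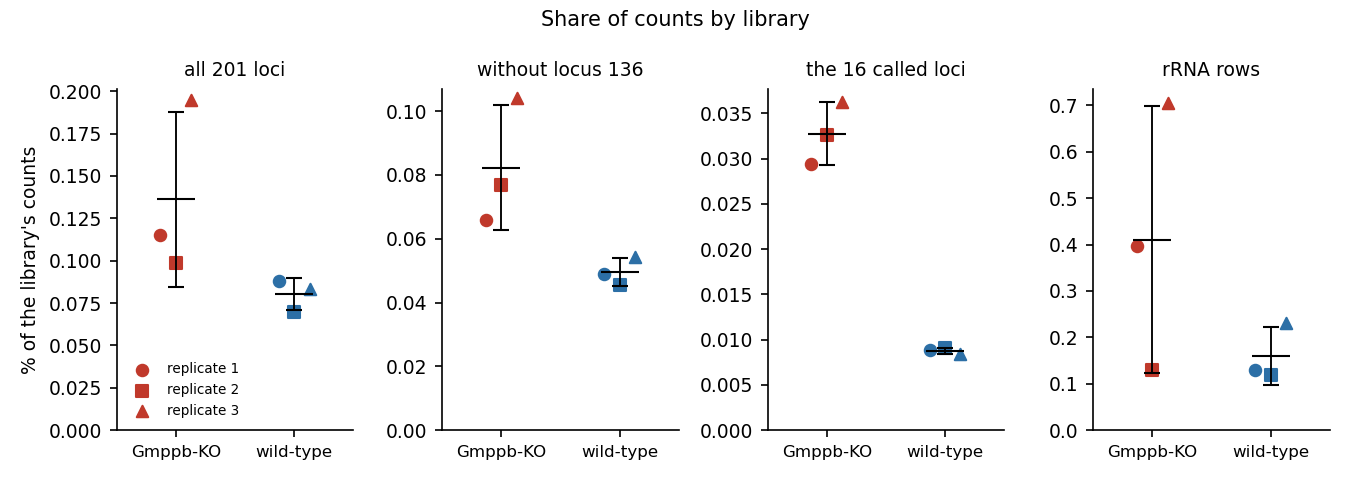
Share of each library's counts (y axis, percent) in all 201 loci, in the loci without locus 136, in the 16 called loci and in ribosomal RNA rows, with Gmppb-KO left of wild-type, a marker shape per replicate, and mean ± SD as bars. Gmppb-KO replicate 3 is the highest library in all 4 panels, at 0.195% of counts for all 201 loci.

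A second abundant locus, locus 103 (chr19:4061500-4066369, plus strand, 4870 bases unbroken), lies 2054 bases from Gstp3 among the glutathione transferase genes. It had 826, 1428 and 4180 counts in Gmppb-KO libraries, against 554, 391 and 760 in wild-type libraries. All Gmppb-KO values were above all wild-type values, but the spread within Gmppb-KO was wide and the locus missed the threshold (log2 fold change 1.63, SE 0.50, adjusted p = 0.114, edgeR). It passed without Gmppb-KO replicate 1, with DESeq2, with the weaker filter and with a replicate block. The most counted gene of that family nearby, Gstp1, had 11783, 11325 and 7003 counts in Gmppb-KO libraries, against 9862, 10820 and 8593 in wild-type libraries (adjusted p = 0.735, edgeR).

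Gmppb-KO replicate 3 was the high library at locus 103 and at several other loci. It was at least 2 times the mean CPM of the other two Gmppb-KO libraries in 15 of the 97 tested loci (15.5%), a share near the 16.6% of all tested rows. At locus 130 on chromosome 2 it had 254 counts beside 27 and 42 in Gmppb-KO replicates 1 and 2, against 49, 25 and 63 in wild-type libraries. At the neighbours locus 7 and locus 8, 93 bases apart on 1 strand of chromosome 1 and perhaps parts of 1 transcript, it had 235 and 120 counts. There the other two Gmppb-KO libraries had 27 and 62 counts at locus 7 and 14 and 18 at locus 8, against 67, 31 and 52 and against 6, 0 and 18 in wild-type libraries. The nuclear noncoding RNAs Malat1 and Xist were high in the same library, with 147, 235 and 2462 counts and 125, 510 and 3041 counts in Gmppb-KO libraries, against 140, 88 and 243 and against 275, 190 and 328 in wild-type libraries. Neat1 had 23, 95 and 418 counts in Gmppb-KO libraries, against 160, 75 and 208 in wild-type libraries. Rn7sk was not high in that library, at 3.42, 3.24 and 3.25 CPM in Gmppb-KO libraries, against 3.5, 5.32 and 2.28 CPM in wild-type libraries. Whether the rows that were high in Gmppb-KO replicate 3 move together for 1 reason was not tested.

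Of the 8 tested loci that overlap a RefSeq pseudogene on either strand, edgeR, limma voom and DESeq2 each called 0, with an unadjusted p under 0.05 in 2 (edgeR), and 1 was called without wild-type replicate 3. All 8 had negative log2 fold changes, between -1.22 and -0.37. Named processed pseudogenes also leaned negative, with a median of -0.22 over the 670 tested, beside 0.11 over all rows tested. Of the 658 that passed the filter through libraries of both groups 240 had a positive value. The most counted, locus 88 (chr17:82409849-82410883, minus strand), is the near copy of Rpsa shown above. It had 1139, 1080 and 677 counts in Gmppb-KO libraries, against 1169, 1367 and 1077 in wild-type libraries (log2 fold change -0.54, SE 0.29, adjusted p = 0.325, edgeR). Rpsa itself had 80965, 74784 and 44111 counts in Gmppb-KO libraries, against 102868, 126416 and 63413 in wild-type libraries (log2 fold change -0.78, SE 0.42, adjusted p = 0.33, edgeR). With 98.9% identity, reads of the gene and of the copy are hard to part, and the values of locus 88 are uncertain for that reason.

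Another ribosomal protein copy, locus 192 on the unplaced scaffold GL456382.1 (minus strand, 510 bases), lists the ubiquitin and S27a domains of the Rps27a product. It had 499, 487 and 645 counts in Gmppb-KO libraries, against 312, 178 and 398 in wild-type libraries, and did not pass (log2 fold change 0.66, SE 0.28, adjusted p = 0.234, edgeR). Rps27a had 10112, 20423 and 5269 counts in Gmppb-KO libraries, against 13435, 22517 and 4239 in wild-type libraries. The order of the libraries differed: Gmppb-KO replicate 3 was highest for locus 192 and lowest of the Gmppb-KO libraries for Rps27a. The last of the most counted loci, locus 72 (chr17:21474253-21478241, plus strand), begins 439 bases from the start of RefSeq Gm52290 and had 281, 308 and 682 counts in Gmppb-KO libraries, against 197, 132 and 290 in wild-type libraries (log2 fold change 0.78, SE 0.37, adjusted p = 0.277, edgeR).

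Among the 104 untested loci the median total over 6 libraries was 20 counts. A few, picked out here after their values were seen, had counts in 1 group alone. At locus 98 on chromosome 18 Gmppb-KO libraries had 36, 16 and 5 counts, at locus 50 on chromosome 14 they had 5, 10 and 35, and at locus 180 on chromosome 8 they had 6, 2 and 52, against 0 in all wild-type libraries at each. At locus 172 on chromosome 7, which lists the KRAB box of zinc-finger repressors, they had 6, 15 and 1 counts, against 0 in all wild-type libraries. The opposite held at locus 174 on chromosome 8, with 0, 0 and 0 counts in Gmppb-KO libraries, against 14, 6 and 8 in wild-type libraries. The counts varied widely within the group that had them, as the single high library of locus 180 shows, and no test was made.

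The authors' deposited table gives its own adjusted p for 194 of the loci, of which 30 are under 0.05, 20 with a positive and 10 with a negative fold change. All 16 loci called here are among those 30 of the authors' deposited table, which come from the same libraries. DESeq2, the tool in the submitters' notes, was also run here on the same counts. It called 30 loci, 20 higher and 10 lower, which is 16.5% of the loci it tested, against 8.28% of all rows.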

How the data were processed

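Samples were 3 Gmppb-KO and 3 wild-type C2C12 libraries, grouped and numbered by their titles. The authors deposited 1 table with raw read counts per row, FPKM, a normalized group signal, a log2 fold change, p-values with adjusted p-values, and coordinates and lengths, per the file headers. Tools in the submitters' processing notes are HISAT2, featureCounts of Subread, FastQC and DESeq2, and the build is mm10. Not given in the sources used here are how the unnamed loci were assembled, the strand setting and the treatment of multi-mapping reads.

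The counts of all 54733 rows went into edgeR 4.0.16 under R 4.3.3 (TMM scaling, filterByExpr with a minimum of 10 counts in 3 libraries and 15 in total, quasi-likelihood F test on group). P-values were adjusted over the 12883 rows tested. SE is the absolute log2 fold change over the square root of F. CPM uses TMM-scaled library sizes. Bounds use a floor of 3 counts over the group, and intervals are exact binomial at 95%. Intervals and floors cover counting error only. Shares were compared by exact permutation (SciPy 1.17.1). The unnamed loci were set beside RefSeq GRCm38.p6 and GENCODE M21, both of the build the table uses. Pseudogene and mRNA were aligned with Biopython 1.88. Alternatives were DESeq2 1.42.0, limma 3.58.1 (voom), other scalings and filters, a replicate block and leaving out each library. The procedure was tested on simulated data. Named are all called loci, the 8 with the largest mean count and the 5 largest not called, each with its nearest named row where a result turns on it. Any other locus named was chosen after its values were seen. Members, lists and tests were chosen with earlier results of these data known.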

Additional observations from a re-analysis of the deposited data

How the results depend on the processing

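Of the 22 named loci, 281 alternative fits gave an adjusted p, and none turned the direction. In 254 the call stood as reported, in 23 it was lost (22 of them with a library left out) and in 4, all for locus 103, it was gained. Calls of locus 10, locus 19, locus 47, locus 91, locus 185, locus 197 and locus 200 stood in all 13 alternatives each. The number of called loci was 16 as reported, 30 with DESeq2, 25 with only a count sum above 1 as filter, 17 with limma voom and with median-of-ratios scaling, 15 with library totals only and 12 with at least 1 CPM in 3 libraries, a filter that left out locus 4, locus 11, locus 68 and locus 133. All 16 were among the 30 and among the 25. Of tested loci 16.5% were called with DESeq2, beside 8.28% of all rows, and 12.9% with the weaker filter, beside 4.73%. With limma voom it was 17.5% beside 5.64%, and with median-of-ratios scaling 17.5% beside 5.84%. With library totals it was 15.5% beside 4.52%, and with the 1 CPM filter 16.4% beside 5.62%. With a library left out the number of called loci ranged from 8 (without wild-type replicate 1) to 17 (without wild-type replicate 3). Those shares were 7.62% beside 2.58% of all rows and 15.9% beside 5.26%. Same-numbered libraries of the 2 groups had correlations of their deviations of -0.178, 0.503 and 0.419, and differently numbered ones from -0.539 to 0.294. The labels do not say that a number marks a shared culture or day, so a replicate block was fitted only as an alternative. A replicate block gave 21 called loci (21.6%), the 16 among them, and 1639 called rows in all (12.7%), beside 740 without it. Called rows in all numbered 1325 with DESeq2, 342 without wild-type replicate 1, 459 without wild-type replicate 2 and 411 without Gmppb-KO replicate 2. Scaling by library totals moved the median log2 fold change of all rows to 0.27, beside 0.11 as reported. The difference in share stayed positive in all alternatives, from 0.0263 to 0.0746 percentage points, with the block's exact p = 0.25 the smallest that 3 pairs allow. The causes were not tested. Of scarce loci, depth leaves 104 untested.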
